A study of Homo sapiens with 8 samples.

Results

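The genes examined here encode proteins that the liver secretes into blood plasma: the fibrinogen chain genes FGA, FGB and FGG, the protease inhibitor gene SERPINA1, the apolipoprotein genes APOA1, APOB and APOH, the carrier genes TF and TTR, and AHSG. They were taken by gene symbol from the count tables, in which all 10 were found among 59050 symbols, and 5 of the 10 had enough counts for a test of differential expression. The tumours were xenografts of the human lung carcinoma line H2122 grown in a mouse host from cells of the genotype WT (here called parental, n = 4) or from SMARCA4 KO cells (knockout, n = 4). All 8 tumours carried the H2122 background and had received vehicle only. SMARCA4 (BRG1) is a catalytic subunit of SWI/SNF, which uses ATP to move nucleosomes. Whether the knockout cells were 1 clone, how the knockout was made, and the strain and age of the host animals are not given in the sources used here. The labels call the tumours replicates without saying that each came from a separate animal, so p-values measure the spread between these samples. Values with ± are means and SD over the 4 tumours of a group.

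Fibrinogen is a plasma protein that thrombin converts to fibrin in a clot. It is assembled from α, β and γ chains, encoded by FGA, FGB and FGG, which lie side by side in the genome and are switched on together in hepatocytes. Like SERPINA1, the fibrinogen genes are classical acute-phase genes: interleukin-6 acting through STAT3, and liver-enriched transcription factors such as C/EBP, raise their transcription. Epithelial cells and lung carcinoma cells can express some of these genes outside the liver.

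The regions just upstream of the fibrinogen genes and of the downstream SERPINA1 start are shown because these are the members with abundant transcripts and because their neighbouring promoters can be compared letter by letter. Each is the 250 bases before a RefSeq start on GRCh38.p14, read 5′ to 3′ on the strand of the gene. FGA is chr4:154590743-154590992 on the minus strand, FGB is chr4:154562730-154562979 on the plus strand (the first of 2 listed starts), FGG is chr4:154612657-154612906 on the minus strand, and SERPINA1 is chr14:94388603-94388852 on the minus strand (the second of 2 listed starts). Capitals mark CTGGGA, the core of the IL-6 response element of acute-phase genes, on either strand, so that a match on the other strand reads TCCCAG.
FGA: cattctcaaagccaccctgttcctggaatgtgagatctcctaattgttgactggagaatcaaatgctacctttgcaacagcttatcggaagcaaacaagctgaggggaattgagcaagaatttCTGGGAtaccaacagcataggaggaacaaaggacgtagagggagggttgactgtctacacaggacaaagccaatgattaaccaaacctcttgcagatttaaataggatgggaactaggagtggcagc
FGB: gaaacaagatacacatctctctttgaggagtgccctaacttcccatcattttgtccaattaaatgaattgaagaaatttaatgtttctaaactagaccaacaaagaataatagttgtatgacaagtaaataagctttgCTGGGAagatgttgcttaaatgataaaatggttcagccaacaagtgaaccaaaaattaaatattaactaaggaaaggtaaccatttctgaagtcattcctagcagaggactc
FGG: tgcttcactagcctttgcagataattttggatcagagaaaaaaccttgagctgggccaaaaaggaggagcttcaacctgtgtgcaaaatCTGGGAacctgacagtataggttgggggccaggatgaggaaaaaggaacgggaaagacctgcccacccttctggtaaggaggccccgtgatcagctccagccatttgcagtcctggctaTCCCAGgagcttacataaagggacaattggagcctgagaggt
SERPINA1: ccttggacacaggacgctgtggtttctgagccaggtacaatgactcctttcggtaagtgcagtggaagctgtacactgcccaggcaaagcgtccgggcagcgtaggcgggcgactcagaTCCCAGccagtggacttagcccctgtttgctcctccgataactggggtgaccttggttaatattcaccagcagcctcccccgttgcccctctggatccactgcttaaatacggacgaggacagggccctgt

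All 3 fibrinogen windows held CTGGGA on the strand of the gene, first base 127 bases before the start in FGA, 112 in FGB and 161 in FGG, and FGG had another on the opposite strand at 42. The SERPINA1 window shown held it on the opposite strand, 131 bases before the start. The window of the other SERPINA1 start, chr14:94390636-94390885, held none of the motifs searched, and counts per gene do not show which start the tumours used. RefSeq start entries were present for 7 of the 10 genes, FGA, FGB, FGG, SERPINA1, APOH, TF and AHSG, with 10 windows in all. CTGGGA was in 5 of these 10 windows (1 of FGA, 2 overlapping ones of FGB, 1 of FGG and 1 of 2 of SERPINA1), and in 28.7% of all 35116 windows of the same length. Further motifs searched on both strands were TTGCNNAA (a C/EBP site, in 9.05% of all windows and in 5 of these 10, of FGA, FGB, TF and AHSG), TGTTTNC (known from FOXA factors, 15.5%, in 3 of the 10, of FGA, SERPINA1 and AHSG), TTCNNNGAA (a STAT site, 6.57%, in the 1 of FGA) and the TATA box core TATAAA (10.7%, in none of the 10). No match overlapped another in these windows. A match describes letters and not a bound site.

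Gene counts totalled 19785922 to 23191698 per library. The knockout was visible in the target: SMARCA4 was at 198 to 235 CPM (counts scaled to the library size after TMM normalisation) in the parental and 22.3 to 31.1 CPM in the knockout libraries. Markers of the host and of other tissues were counted as a check of tissue identity. Of 7 lung epithelial markers, NKX2-1, SFTPA1 and SFTPC had 0 counts in all 8 libraries, and of the 2 tested SLC34A2 was lower in knockout tumours (log2 fold change -1.17, edgeR adjusted p = 0.00600). The summed level of 10 leukocyte and macrophage markers, none called between the groups, was 17.1, 91.4, 77.6 and 11.8 CPM over the parental replicates, taken here and below in the order 1 to 4, and 28.5, 35.4, 24.5 and 16.7 CPM over the knockout replicates. Of 7 fibroblast markers 4 were tested, and the most abundant, COL1A1, was not called (353 ± 164 and 447 ± 132 CPM, log2 fold change 0.34, edgeR adjusted p = 0.456), nor were COL1A2 (0.60) and COL3A1 (-0.16), whereas LUM was higher in knockout tumours (0.374 ± 0.236 against 12.4 ± 2.50 CPM). Of 6 endothelial markers 2 were tested, and the most abundant, PECAM1, was not called (0.30, adjusted p = 0.504) while VWF was lower (-2.37, adjusted p = 0.000410). PECAM1 was called higher in 1 of 17 alternative analyses, that without parental replicates 2 and 3 (0.87, edgeR adjusted p = 0.0310). LUM, VWF, COL1A2 and COL3A1 are named after their values were seen. The muscle marker MB was lower (-0.98, adjusted p = 0.0471), a call lost in 10 of 17 alternative analyses, with adjusted p up to 0.203. Erythroid and adipocyte markers had too few counts for a test, with 2 and 1 counts of ALAS2 and 28 and 56 of PLIN1 over the parental and knockout libraries, and HBA2 and ADIPOQ at 0. The part of such cells in the results was not tested. In these bulk samples, fewer cells of a type and less RNA per cell cannot be told apart. The host was a mouse, while the counts are for human genes. Marker counts may come from mouse reads counted as human or from the tumour cells, and these sources cannot be told apart here.

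Of the 5 genes tested, FGA and FGB were higher in knockout tumours and none was lower, while FGG, SERPINA1 and TF did not pass the test. Tests were made with edgeR's quasi-likelihood method over 16219 genes, with Benjamini-Hochberg adjusted p under 0.05 as the call, and 27.0% of all tested genes were called, 2102 genes as higher and 2283 as lower. The median log2 fold change of the 5 tested genes was -0.04, against 0.00345 for all genes tested. The 5 genes that were not tested had at most 8 counts in either group. The 10 genes therefore fell into abundant transcripts (FGA, FGB, FGG and SERPINA1), 1 low transcript (TF) and 5 at or near 0.

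**Figure D1:**
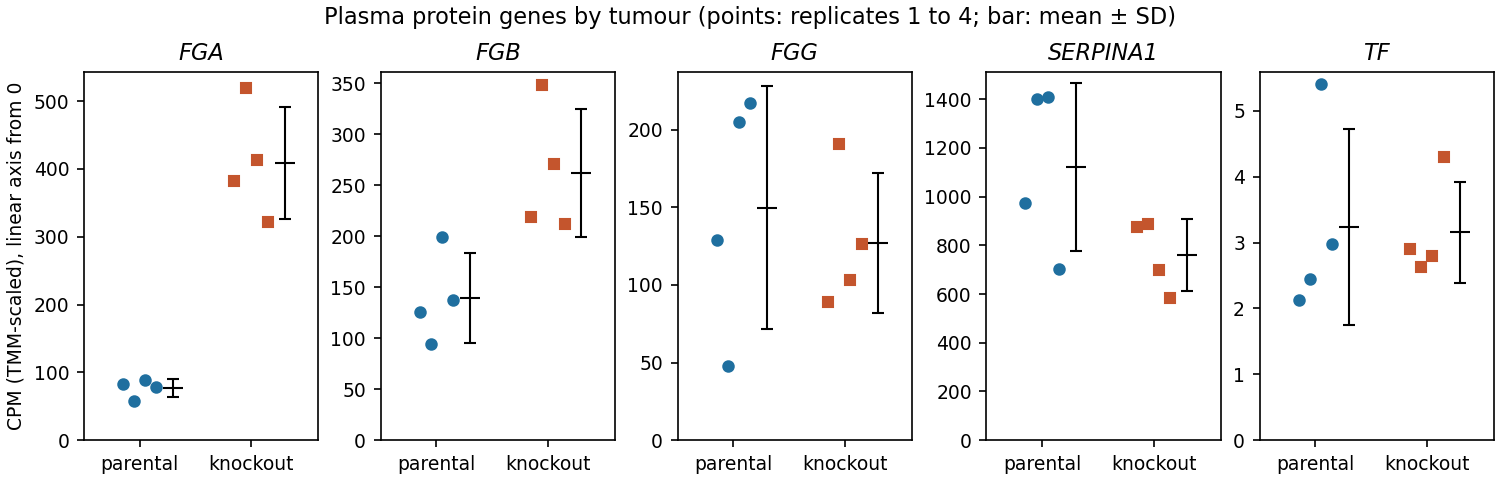
Level of each tested gene in every tumour, in CPM on linear axes from 0; circles are parental and squares knockout tumours in order of replicate number, and bars give mean ± SD (n = 4). For FGA the knockout tumours lie at 322 to 519 CPM, above the parental tumours at 57.4 to 89.1 CPM; FGB is also separated, and FGG, SERPINA1 and TF overlap.

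FGA (ENSG00000171560, chromosome 4, 154583126 to 154590766, minus strand, GENCODE 29 on GRCh38) encodes the fibrinogen α chain, whose fibrinopeptide A thrombin cuts off. FGA counts were 1587, 1176, 1996 and 1834 in the parental tumours and 8165, 10652, 8847 and 6898 in the knockout tumours. As CPM these were 82.2, 57.4, 89.1 and 78.0 against 381, 519, 413 and 322. Every knockout tumour lay above every parental tumour, and the lowest knockout value was several times the highest parental one; groups that do not overlap were found for 29.3% of all tested genes. FGA rose from 76.7 ± 13.6 to 409 ± 82.7 CPM (SD, n = 4), which is 5.33-fold or 2.41 on the log2 scale (SE 0.168, edgeR adjusted p = 2.98e-06). The estimate lay between 2.28 and 2.52 whichever single tumour was left out.

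FGB (ENSG00000171564, chromosome 4, 154562956 to 154571086, plus strand) encodes the β chain, the source of fibrinopeptide B. FGB was at 126, 94.5, 199.6 and 138 CPM in the parental tumours and at 219, 348, 271 and 212 CPM in the knockout tumours. The groups did not overlap, but the gap was narrow, since parental replicate 3 lay just under knockout replicates 1 and 4. FGB rose 1.88-fold, from 139 ± 44.1 to 262 ± 62.9 CPM (SD, n = 4), or by 0.91 on the log2 scale (SE 0.218, edgeR adjusted p = 0.00947).

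FGG (ENSG00000171557, chromosome 4, 154604134 to 154612967, minus strand) encodes the γ chain, which carries a binding site for the platelet integrin. FGG was at 129, 47.7, 205 and 217 CPM in the parental tumours and at 88.9, 191, 103 and 127 CPM in the knockout tumours. The groups overlapped across most of their range, and the highest parental tumour was 4.56 times the lowest. Means were 150 ± 78.4 CPM (parental) and 127 ± 45.1 CPM (knockout; SD, n = 4), and the log2 difference of -0.23 did not pass the test (SE 0.386, edgeR adjusted p = 0.701). Leaving out single tumours moved it from -0.53 without parental replicate 2, the lowest parental tumour, to -0.01 without parental replicate 4, the highest, with adjusted p of 0.134 and 0.991.

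The balance among the 3 chains differed between the groups. FGA supplied 18.0% to 28.8% of the fibrinogen counts in parental tumours and 48.8% to 55.3% in knockout tumours, a mean of 22.3% ± 5.25 against 51.4% ± 3.12 (SD, n = 4; exact permutation p = 0.0286, two-sided, the lowest value that 4 against 4 tumours can give). The FGG share went the other way, from 38.5% ± 10.9 to 15.8% ± 3.26 (exact permutation p = 0.0286). The FGB share was 39.2% ± 6.48 and 32.8% ± 1.17, with overlapping groups (exact permutation p = 0.114). These 3 shares sum to 100% in each tumour, so they are not independent of each other. The shares come from the same counts as the tests of the single chains above, so they are not separate evidence. Their p-values are not adjusted.

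Ratios of counts between chains within a tumour do not depend on the scaling of the library, and their change between groups does not depend on gene length. The FGA to FGB ratio was 0.653, 0.608, 0.447 and 0.566 in the parental tumours and 1.74, 1.49, 1.53 and 1.52 in the knockout tumours. The parental tumours all had fewer FGA than FGB counts and the knockout tumours all had more. The log2 ratio differed by 1.48, from -0.83 ± 0.238 to 0.65 ± 0.103 (SD, n = 4; exact permutation p = 0.0286, 0.0429 after Benjamini-Hochberg adjustment over 3 ratios). The FGA to FGG ratio was 0.636, 1.20, 0.435 and 0.359 in the parental tumours and 4.29, 2.72, 4.0 and 2.55 in the knockout tumours. Its log2 value differed by 2.49, from -0.77 ± 0.770 to 1.72 ± 0.383 (exact permutation p = 0.0286, 0.0429 after adjustment). The FGB to FGG ratio overlapped between groups because parental replicate 2, with 1.98, lay among the knockout tumours at 1.68 to 2.62 (difference in log2 1.01, exact permutation p = 0.0857, also 0.0857 after adjustment). The ratios were chosen after the values of the chains had been seen.

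**Figure D2:**
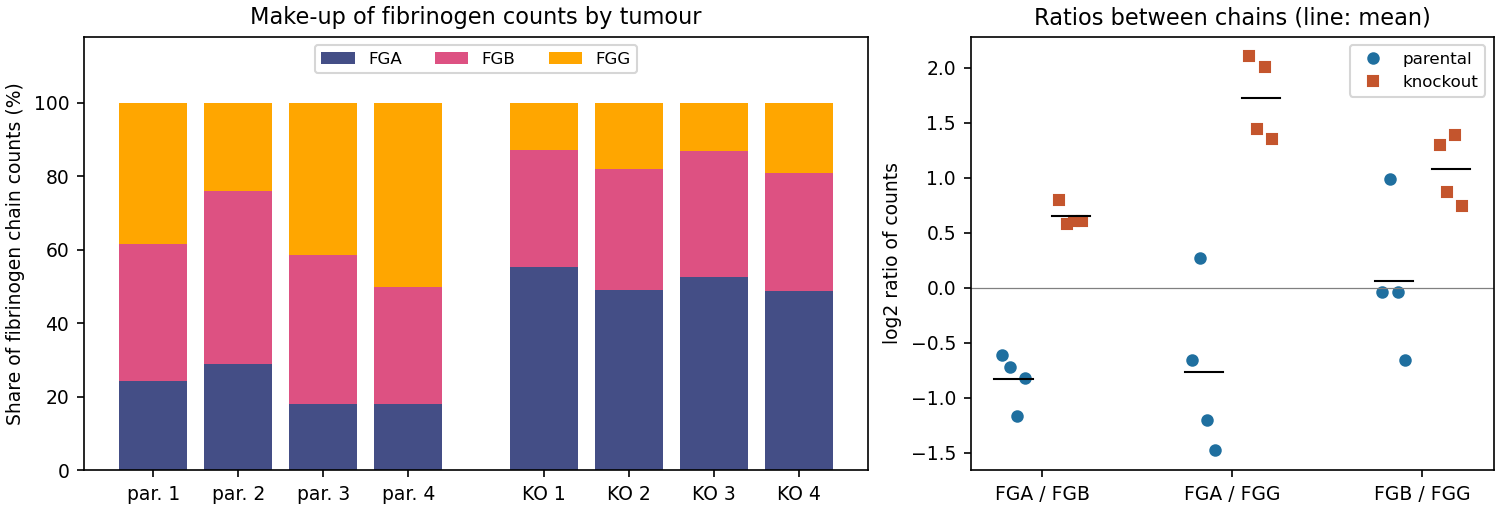
Left, share of the summed FGA, FGB and FGG counts held by each chain in every tumour, in percent (par., parental; KO, knockout; numbers are replicates). Right, log2 ratios of counts between chains per tumour, with lines at the group means; FGA over FGB and FGA over FGG are separated between the groups, while FGB over FGG overlaps.

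Summed over the chains, fibrinogen transcripts stood at 337, 199.5, 494 and 433 CPM in the parental tumours and at 689, 1059, 787 and 661 CPM in the knockout tumours, a 2.18-fold difference of means (366 ± 128 and 799 ± 181 CPM, SD, n = 4; exact permutation p = 0.0286). Per kilobase of annotated exon, parental levels were 19.4 ± 3.45 CPM for FGA, 51.5 ± 16.3 for FGB and 41.6 ± 21.8 for FGG, so that FGA was the lowest chain. Knockout levels were 103 ± 20.9, 96.9 ± 23.2 and 35.4 ± 12.5 CPM per kilobase, where FGA and FGB lay within their spread of each other and FGG was the lowest. Annotated exons include isoforms that these cells may not use, so levels per length are approximate. The fibrinogen cluster was also compared with the genes beside it. Within 500 kb, 4 other protein-coding genes are annotated, and the 2 tested were not called: the splicing factor gene PLRG1 (log2 fold change -0.12, edgeR adjusted p = 0.318) and the retinol-esterifying enzyme gene LRAT (0.08, adjusted p = 0.751).

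The 3 genes outside the set whose pattern over the 8 tumours was closest to the mean pattern of the fibrinogen chains, of 13048 sufficiently expressed genes (average log2 CPM 1 or more), were S100A9, AL139393.1 and AGMAT. The root mean square difference of their centred log2 CPM values was 0.193, 0.218 and 0.225. FGB itself differed from the mean pattern by 0.166, FGA by 0.691 and FGG by 0.666, so the mean pattern was that of FGB rather than of FGA or FGG. S100A9, a calcium-binding protein of neutrophils and stressed epithelia, was at 956 ± 191 CPM (parental) and 2192 ± 446 CPM (knockout; SD, n = 4), a difference that its choice by this pattern largely fixes and that is given without a test.

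SERPINA1 (ENSG00000197249, chromosome 14, 94376747 to 94390693, minus strand) encodes α1-antitrypsin, the inhibitor of neutrophil elastase, and is transcribed in hepatocytes, macrophages and some epithelial cells. Per kilobase of exon it had the highest level of the 4 abundant genes in both groups, 229 ± 70.4 and 155 ± 29.8 CPM. In the parental tumours SERPINA1 was at 975, 1401, 1408 and 703 CPM, and in the knockout tumours at 874, 886, 697 and 584 CPM. Parental replicates 2 and 3 stood above every other tumour, while parental replicate 4 lay among the knockout tumours. Means of 1122 ± 345 and 760 ± 146 CPM (SD, n = 4) gave a log2 difference of -0.56, which did not pass the test (SE 0.214, edgeR adjusted p = 0.0745; exact permutation p = 0.114).

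Parental replicates 2 and 3 were also the tumours with the highest leukocyte marker sums, 91.4 and 77.6 CPM against 11.8 to 35.4 CPM in the others. The most abundant of the markers, LYZ, averaged 21.7 ± 18.3 (parental) and 9.03 ± 5.72 CPM (knockout), and none of the 10 markers was at 0 in all libraries. LYZ was not called (log2 difference -1.27, edgeR adjusted p = 0.175), but was called without a filter on low counts (-1.28, 0.0350) and without parental replicate 4 (-1.63, 0.0418). Without these 2 tumours the SERPINA1 log2 fold change was -0.15 (edgeR adjusted p = 0.567), a removal chosen after seeing the data that takes away the 2 highest SERPINA1 values and so shrinks the difference by its construction. What part leukocyte RNA has in the SERPINA1 difference was not tested. Leukocytes of the host are mouse cells, so these human marker counts may not measure them. The side of the threshold also varied, with adjusted p = 0.00973 without parental replicate 4 (log2 fold change -0.74), 0.0308 by DESeq2, 0.0333 with the replicate number as a block and 0.0125 without a filter on low counts.

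**Figure D3:**
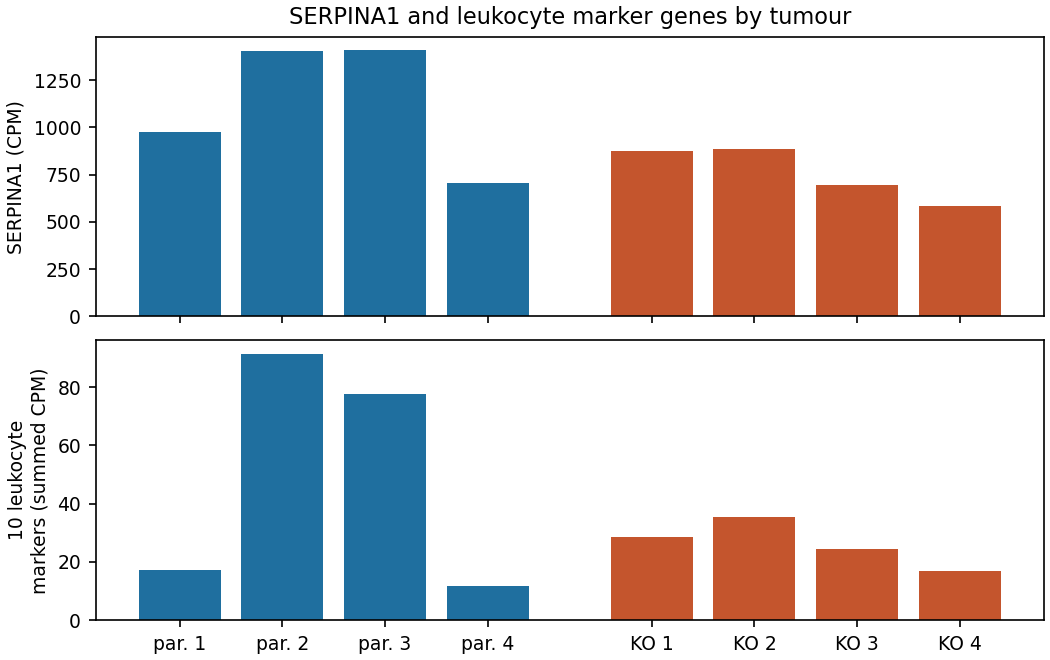
Bars give SERPINA1 in CPM (top) and the summed CPM of 10 leukocyte and macrophage marker genes (bottom) in each tumour, on axes from 0 (par., parental; KO, knockout; numbers are replicates). Parental replicates 2 and 3 are the highest in both panels.

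The serpin gene cluster around SERPINA1 was compared because several of its members are also plasma proteins. Among 19 other protein-coding genes within 500 kb, 9 were tested. Of these, 1 was called higher (PPP4R4) and 5 lower (SERPINA5, OTUB2, DDX24, IFI27L2 and GSC), where 27.0% of all tested genes were called. Of those called, all but SERPINA5 are outside the serpin family and are named after their values were seen. SERPINA5, the inhibitor of activated protein C, fell from 4.07 ± 0.996 to 1.24 ± 0.393 CPM (SD, n = 4; log2 fold change -1.71, edgeR adjusted p = 0.000629). SERPINA3, α1-antichymotrypsin, had a log2 fold change of -0.57 and was not called (adjusted p = 0.532). SERPINA11 and SERPINA12 had 0 counts in all libraries, and SERPINA6, corticosteroid-binding globulin, had 6 parental and 10 knockout counts.

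TF (ENSG00000091513, chromosome 3, 133745956 to 133796640, plus strand) encodes transferrin, which carries iron in plasma. TF counts were 41, 50, 121 and 70 in the parental tumours and 62, 54, 60 and 92 in the knockout tumours, or 2.12 to 5.40 and 2.63 to 4.29 CPM. The groups overlapped, and the highest tumour of each group, parental replicate 3 and knockout replicate 4, stood above the rest of it. TF was not called (log2 difference -0.04, SE 0.297, edgeR adjusted p = 0.938). Without parental replicate 3 it was 0.32 (adjusted p = 0.363). TF overlaps SRPRB, AC080128.1 and TFP1 in the annotation, so its reads may not be separated from theirs. SRPRB lies on the same strand as TF, so strandedness would not separate these genes. The transferrin receptor gene TFRC, at 217 ± 121 (parental) and 208 ± 26.0 CPM (knockout), was not called (log2 fold change -0.07, adjusted p = 0.898).

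The apolipoproteins were at or near 0. APOB, the structural protein of very-low-density and low-density lipoproteins (ENSG00000084674, chromosome 2, 21001429 to 21044073, minus strand), had 0 counts in all 8 libraries. A count of 0 over the 4 libraries of a group allows up to 3 counts, or 0.0350 CPM (parental) and 0.0354 CPM (knockout), so APOB transcripts were not detectable at this depth. APOA1, the main protein of high-density lipoprotein (chromosome 11, 116835751 to 116837950, minus strand), gave 2, 0, 1 and 2 counts in the parental tumours and 0, 0, 0 and 2 in the knockout tumours. The knockout-to-parental ratio of its pooled counts was 0.404 with an exact 95% interval of 0.0385 to 2.47, which covers counting error only, and its CPM did not pass an exact permutation test (p = 0.371). APOH, β2-glycoprotein I (chromosome 17, 66212033 to 66256525, minus strand), had 1 count in each of parental replicates 3 and 4 and none elsewhere, and no ratio is given.

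TTR and AHSG were likewise near the limit of detection. TTR (chromosome 18, 31557010 to 31599021, plus strand), the carrier of thyroxine and of retinol-binding protein, had 0 counts in all 8 libraries, with the same limits as APOB. AHSG (chromosome 3, 186612923 to 186621318, plus strand), or fetuin-A, which binds mineral in serum, gave 1, 2, 3 and 2 counts in the parental tumours and 3, 3, 0 and 1 in the knockout tumours. The ratio of its pooled counts was 0.885 with an interval of 0.273 to 2.79 (exact permutation p = 0.914). No difference was detectable for these genes at this depth. APOA1, APOB and AHSG each overlap another annotated gene.

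The other genes of the plasma protein class were then compared. Of 59 further plasma protein genes, 22 passed the filter, of which 7 were called higher and 6 lower. These were 59.1% of those tested, against 27.0% of all tested genes. Counts were 0 in all libraries for 5 (APOA4, F9, GC, ITIH3 and SERPINA7). The median log2 fold change of those tested was -0.21. This list and those below were chosen with earlier results of these data known, so their shares of called genes are description only. The largest rise was in PROS1, protein S of the anticoagulant pathway, from 6.52 ± 2.0 to 35.1 ± 4.16 CPM (SD, n = 4; log2 fold change 2.43, SE 0.194, edgeR adjusted p = 7.27e-06). PON3, a lactonase carried on high-density lipoprotein, rose from 22.5 ± 2.96 to 47.0 ± 2.45 CPM (1.06, SE 0.105, adjusted p = 2.90e-05). F12, the contact factor of coagulation, fell from 17.3 ± 1.19 to 9.91 ± 1.74 CPM (-0.80, SE 0.135, adjusted p = 0.00113). Albumin, the most abundant plasma protein, was near 0: ALB had 1 count over the parental and 4 over the knockout libraries.

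Further acute-phase genes, chosen after their values were seen, did not go one way. SAA1, serum amyloid A, fell from 14.0 ± 12.3 to 2.31 ± 2.27 CPM (SD, n = 4; log2 fold change -2.61, SE 0.668, edgeR adjusted p = 0.0136), with overlapping groups at 4.97 to 32.2 and 0.794 to 5.66 CPM. Without parental replicates 2 and 3, the latter its highest value, SAA1 was not called (-1.65, adjusted p = 0.0579). LBP, which binds bacterial lipopolysaccharide, rose from 1.88 ± 0.841 to 6.04 ± 1.95 CPM (1.67, SE 0.317, adjusted p = 0.00242). CP, the copper oxidase ceruloplasmin, was at 954 ± 92.6 and 748 ± 177 CPM, and was not called (-0.35, adjusted p = 0.118).

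**Figure D4:**
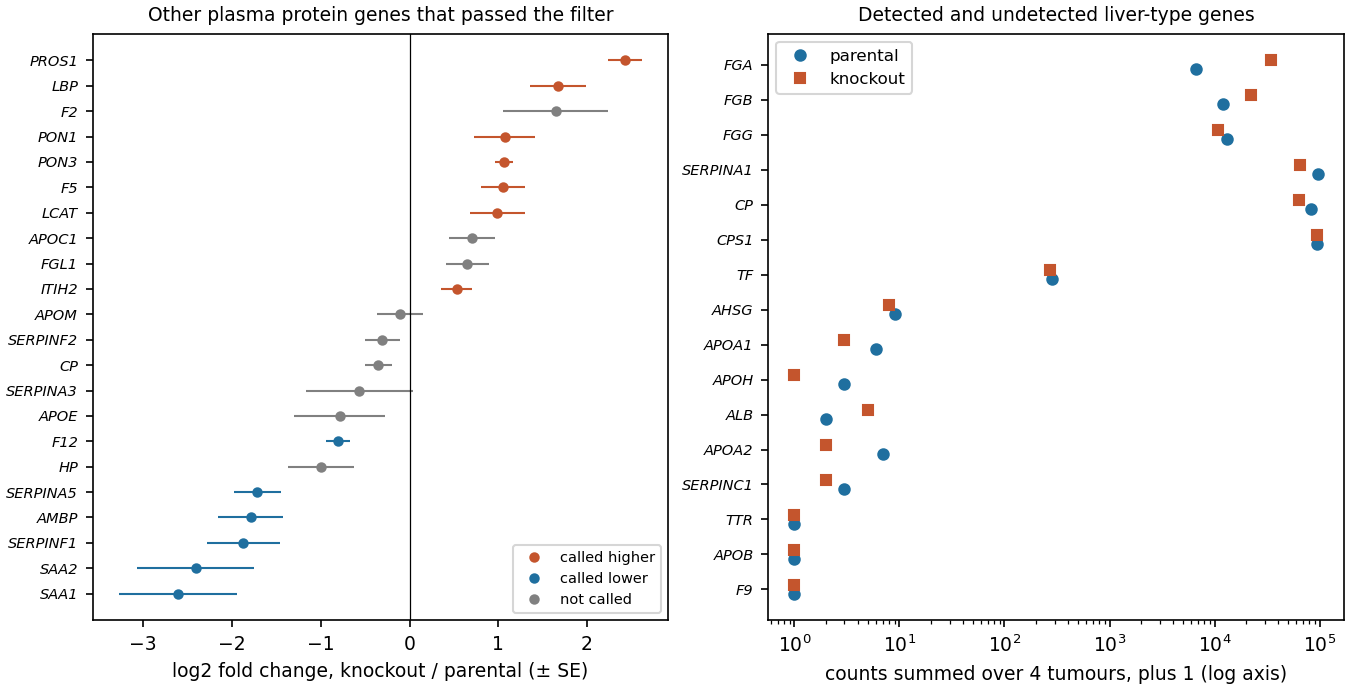
Left, log2 fold change (knockout over parental) ± SE of the 22 other plasma protein genes tested, coloured by call. Right, counts summed over the 4 tumours of each group, plus 1, on a log axis, for the 10 genes and selected liver-type genes; FGA, FGB, FGG, SERPINA1, CP and CPS1 have the highest sums among them, and TTR, APOB and F9 have 0.

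Markers that define the hepatocyte were examined beside these genes. Of 16 hepatocyte markers, 3 passed the filter, F9 and the bile acid transporter gene SLC10A1 had 0 counts in all libraries, and CPS1, carbamoyl phosphate synthetase of the urea cycle, made up most of the summed level. CPS1 averaged 1088 ± 154 (parental) and 1118 ± 96.4 CPM (knockout), with a log2 fold change of 0.04 (edgeR adjusted p = 0.839). The summed marker level ran from 916 to 1265 CPM (parental) and from 981 to 1188 CPM (knockout). The 1 called marker was TDO2, which degrades tryptophan and was named after its value was seen (0.70, higher in knockout tumours, adjusted p = 0.0427). Of 9 intestinal markers, CDX1, CDX2, FABP1, FABP2 and APOA4 were at 0, and VIL1, villin of the brush border, fell from 7.56 ± 1.11 to 0.414 ± 0.0935 CPM (-4.17, adjusted p = 6.60e-07).

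Transcription factors of hepatocytes were compared because some of them, such as C/EBP, are known to act on these promoters. Whether any of those listed does so in these tumours was not tested. Of 23 genes, 16 were tested, and 2 were called higher and 6 lower (median log2 fold change -0.09). These were 50% of those tested, against 27.0% of all tested genes. NR0B2, NR1I2 and GATA4 had 0 counts in all libraries. HNF4A, a nuclear receptor of liver and gut, rose from 1.12 ± 0.207 to 3.16 ± 1.18 CPM (SD, n = 4; log2 fold change 1.49, SE 0.281, edgeR adjusted p = 0.00234). The related and more abundant HNF4G, named after its value was seen, fell from 16.1 ± 1.21 to 9.90 ± 2.22 CPM (-0.71, edgeR adjusted p = 0.00584). ONECUT2 rose from 31.5 ± 5.43 to 78.6 ± 9.09 CPM (1.32, adjusted p = 2.54e-05). In the other direction, FOXA1 fell by 0.81 (adjusted p = 0.000434), FOXA2 by 1.88 (0.000482) and CEBPA by 0.87 (0.000978) on the log2 scale.

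Genes of the IL-6 family and of acute-phase signalling were compared because IL-6 raises fibrinogen transcription. The list also holds interleukin-1 genes, which are not given here as upstream of fibrinogen. Of 19 genes, 18 were tested, and 8 were called higher and 3 lower (median log2 fold change 0.25). These were 61.1% of those tested, against 27.0% of all tested genes. IL6 rose from 4.67 ± 0.809 to 10.8 ± 0.165 CPM (SD, n = 4; log2 fold change 1.21, edgeR adjusted p = 0.000114), and its receptor gene IL6R from 10.3 ± 1.51 to 22.9 ± 2.16 CPM (1.15, adjusted p = 5.67e-05). LIF, another ligand of the family and named after its value was seen, rose from 53.4 ± 21.5 to 162 ± 27.1 CPM (adjusted p = 0.000406). The interleukin-1 receptor gene IL1R1 rose by 1.02 on the log2 scale (adjusted p = 0.000129). The LIF receptor gene LIFR (-0.65, adjusted p = 0.0116) and an interleukin-1 ligand gene, IL1A (-0.78, 0.00317), also named after their values were seen, were called lower. Another interleukin-1 ligand gene, IL1B (1.14, edgeR adjusted p = 0.00121), and the receptor gene OSMR (0.78, 0.00738) were called higher. Both are named after their values were seen. PIAS3, an inhibitor of STAT3, fell from 136 ± 16.2 to 73.5 ± 5.48 CPM (-0.88, adjusted p = 7.39e-05). SOCS3 rose from 43.3 ± 7.70 to 59.1 ± 5.43 CPM (0.45, edgeR adjusted p = 0.0207) and PIM1 from 24.2 ± 1.11 to 29.7 ± 3.26 CPM (0.30, 0.0473). SOCS3 and PIM1 are also named after their values were seen. STAT3 itself was at 304 ± 23.3 and 345 ± 35.7 CPM and was not called (0.18, adjusted p = 0.199). Transcript levels do not measure phosphorylation of STAT3.

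**Figure D5:**
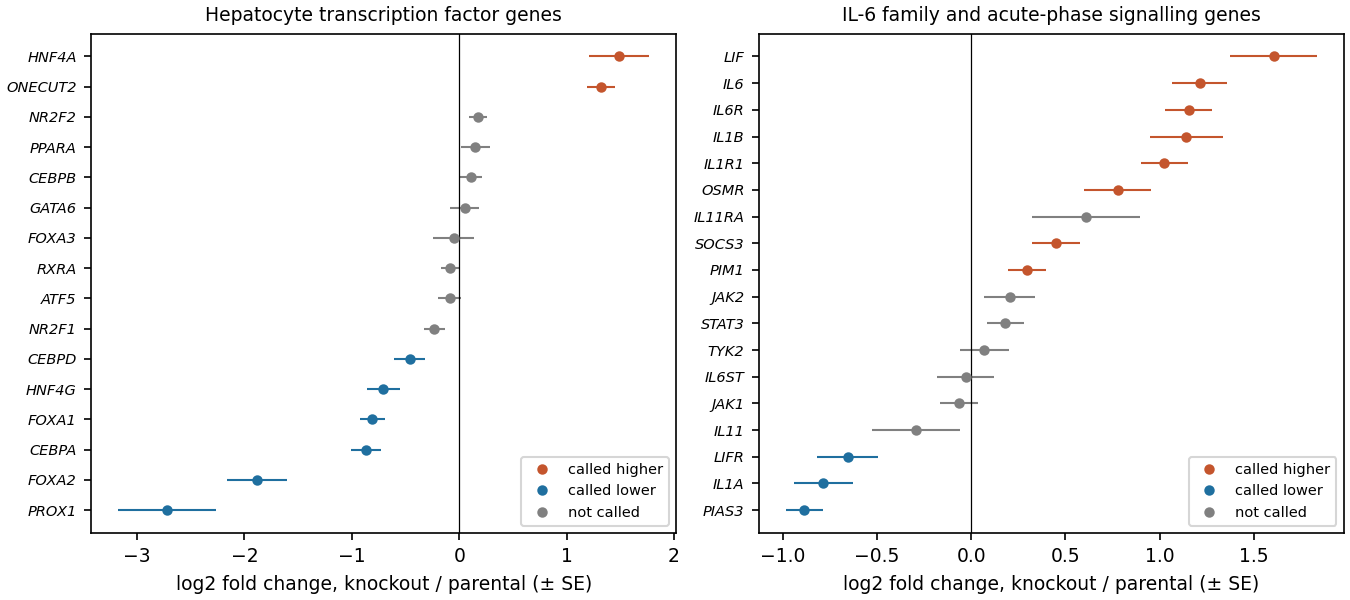
Log2 fold change (knockout over parental) ± SE of the tested hepatocyte transcription factor genes (left, 16 genes) and of genes of the IL-6 family and acute-phase signalling (right, 18 genes), coloured by call. HNF4A and ONECUT2 were called higher and 6 factors lower, and 8 of the signalling genes were called higher.

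Genes that assemble, export or receive these proteins were compared last. Of 13 genes of lipoprotein assembly and export, 9 were tested, and 1 was called higher and 4 lower (median log2 fold change -0.15). These were 55.6% of those tested, against 27.0% of all tested genes. The gene called higher was SURF4, a cargo receptor of the early secretory pathway (0.30, named after its value was seen). TM6SF2 had 0 counts in all libraries. MTTP, the transfer protein that loads lipid onto apolipoprotein B, had 28 parental and 15 knockout counts and was under the filter. SORT1 (log2 fold change -0.71, edgeR adjusted p = 0.000236), MIA3 (-0.61, 0.000303) and MIA2 (-0.46, 0.00306), which act in sorting and export of secreted cargo, were called lower. ABCA1, the transporter that loads lipid onto apolipoprotein A-I, fell from 30.0 ± 9.95 to 15.5 ± 4.4 CPM (SD, n = 4; -0.95, adjusted p = 0.0136), and was not called without parental replicates 2 and 3, its 2 highest values (-0.60, adjusted p = 0.0675).

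Among 18 genes for receptors and partners, 12 were tested, and 2 were called higher and 3 lower (median log2 fold change -0.07). These were 41.7% of those tested, against 27.0% of all tested genes. F13A1, the A subunit of the transglutaminase that cross-links fibrin, fell from 2.64 ± 1.53 to 0.189 ± 0.166 CPM (SD, n = 4; log2 fold change -3.77, SE 0.616, edgeR adjusted p = 0.000936). ITGA2B, a subunit of the platelet fibrinogen receptor, rose from 0.298 ± 0.0971 to 0.907 ± 0.335 CPM (1.61, adjusted p = 0.00676), from 25 parental and 77 knockout counts. Its partner subunit gene ITGB3, named after its counts were seen, had 46 parental and 13 knockout counts and was under the filter. The lipoprotein receptor gene LRP8 was called higher (0.75, adjusted p = 0.000119), and STRA6, the receptor of retinol-binding protein, was called lower (-1.25, 0.0130).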

How the data were processed

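RNA sequencing libraries of 8 xenograft tumours were analysed, 4 parental and 4 SMARCA4 knockout, grouped and numbered by the titles in the labels. The authors deposited raw read counts per gene symbol, 1 file per tumour. TopHat2 2.1.1, HTSeq 0.11.0 and hg38 are named per the submitters' processing notes, without roles. The annotation, strandedness and any removal of mouse reads are not given in the sources used here; mouse reads that resemble human transcripts could be counted. Of the reads tallied per library (assigned, without a feature, ambiguous or not uniquely aligned), 79.1% to 85.2% were assigned to genes. No pair of libraries within a group agreed within sampling noise (chi-square per degree of freedom at least 9.05).

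From these counts, edgeR 4.0.16 (R 4.3.3) was run with filterByExpr (minimum count 10, minimum total 15), TMM scaling and no covariate. CPM uses TMM-scaled library sizes. The 2 groups' single values were compared by exact two-sided permutation tests. Ratios of pooled counts have exact conditional 95% intervals. Alternatives were DESeq2 1.42.0, limma-voom (limma 3.58.1), other scalings and filters, the replicate number as a block, and leaving out tumours. The fits were tested on simulated data. Exon lengths and positions are from GENCODE 29, matched by symbol. Upstream sequences are from RefSeq. The members and lists were chosen with earlier results of these data known. By the rule for naming, the text gives all 10 genes, the 4 called genes with the smallest p of each other list, and 8 genes whatever their result. From marker lists it gives genes at 0 and the most abundant. Genes at 0 in the other lists and some of the genes beside or overlapping the members are named as well, with their values known. Any further gene is marked in the text as named after its value was seen. Further marker lists had summed levels, in parental and knockout tumours, of 179 to 607 and 343 to 603 CPM (fibroblasts), 7.25 to 18.0 and 8.68 to 15.2 (endothelial cells), 3.94 to 42.7 and 2.44 to 16.8 (skeletal muscle), 0.0425 to 0.0893 and 0.0467 to 0.0934 (erythroid cells) and 0.298 to 0.625 and 0.467 to 1.27 CPM (adipocytes). Some genes and sequence motifs are not reported here and are left out of the lists and their counts.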

Additional observations from a re-analysis of the deposited data

Results flagged for a closer look

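Among 21 sets of 4 tumours, 2 held 1 tumour far from the rest. The sets were the CPM of the 10 genes and the share of each fibrinogen chain, leaving out sets at 0 throughout. Chance alone marks about 5% of sets of continuous, normally distributed values, a rate that does not hold for sets of very low counts. TF reached 4.29 CPM in knockout replicate 4, against 2.63 to 2.90 CPM in its group's remaining tumours. APOA1 reached 0.0934 CPM in knockout replicate 4, from 2 counts, and was at 0 in its group's remaining tumours. The rule marks any set that is at 0 in all but 1 tumour.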

How the results depend on the processing

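FGA and FGB were called higher in all 17 alternatives, with log2 fold changes of 2.28 to 2.52 for FGA and 0.75 to 1.13 for FGB, and FGG was called in none (-0.53 to -0.01). SERPINA1 stayed negative but became a call by DESeq2 (-0.57), without a filter on low counts (-0.58), with the replicate number as a block (-0.52) and when 1 tumour was left out in turn (-0.74 to -0.44, a call without parental replicate 4). The number of the 10 genes called was 2 or 3. TF, never called, changed sign by limma-voom (0.0189), with the replicate block (0.0251), without both parental tumours of high leukocyte marker level (0.29) and over the fits without 1 tumour (-0.22 to 0.32). Of the other genes named, none called in the analysis reported above, TFRC changed sign by limma-voom (0.0818), with the block (0.0796) and without 1 tumour (-0.29 to 0.37), CPS1 without both parental tumours (-0.12) and without 1 tumour (-0.0396 to 0.11), and LYZ without both parental tumours (0.60). The cause of these changes was not tested. The other plasma protein genes called numbered 21 without a filter, where more genes were tested, against 13, and the receptors and partners called numbered 3 with the 1 CPM filter, against 5. The number of genes called in the whole table ran from 3501 to 4946. With the filter set to 1 CPM or another scaling no member changed its side of the threshold. The log2 ratios of FGA to FGB and to FGG differed by 1.37 to 1.55 and 2.25 to 2.83 when 1 tumour was left out, where 3 against 4 tumours cannot give an exact p under 0.0571. Same-numbered tumours deviated from their group means with correlations of -0.04, -0.01, -0.22 and 0.09, so the replicate numbers were not taken as pairs; the block gave 3871 genes called. The removal of both parental tumours was chosen after seeing the data. Genes with fewer than 10 counts per group limit any statement to counting intervals.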
